A study of Drosophila melanogaster with 11 samples.

Results

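The regions described here are antibody-enriched regions (peaks) of S2 cell RNA that were called in only 1 of 2 CRISPR-edited lines. A peak on an assembled chromosome arm of the dm3 genome (X, 2L, 2R, 3L, 3R or 4) was taken if no peak of the other line shared even 1 bp with it. This gave 136 of the 479 arm peaks in the list of the yellow line and 259 of the 591 arm peaks in the list of the dTet line. Together they are 395 of 1070 arm peaks, and both lists hold 1982 peaks over all sequences. The 2 classes are called yellow-alone and dTet-alone peaks below, and arm peaks with a counterpart are called shared (343 in the yellow list and 332 in the dTet list). The members were selected on the called positions of the peaks, so their numbers are a description and were not tested.

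The peaks come from hMeRIP-seq, in which RNA is enriched with an antibody to hydroxymethylcytosine and then sequenced, here on total RNA of Drosophila S2 cells, a hemocyte-like embryonic line. The lines were yellow CRISPR S2 cells (yellow is a body pigmentation gene) and dTet CRISPR S2 cells, with 1 hMeRIP sample each and the same rat monoclonal antibody. The labels do not say whether an edited line was a clone or a pool, nor which mutation it carried. Gene levels come from polyA RNA-seq of S2 cells labelled as control (2 libraries) and of S2 cells labelled as dTet knockdown (2 libraries), without a named knockdown reagent. All cells were grown in the same serum-free medium, and 5 further samples of the series were not analysed here.

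Tet proteins are dioxygenases that oxidise methylcytosine to hydroxymethylcytosine, known best from vertebrate DNA and also described in RNA. The fly has 1 Tet gene, called dTet in the labels and CG43444 in the files (now Tet), and flies carry very little cytosine methylation in DNA. A peak in this assay marks a stretch of transcript recovered with the antibody, not a single modified base, and whether it is called depends on the amount of that transcript and on the depth of the library.

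The peak lists of 1 sample per line allow no test of genotype, and the lists carry positions without height, score or p-value. Yellow-alone and dTet-alone peaks therefore cannot be told apart from peaks that fell just under the caller's threshold in the other sample. The RNA-seq values are exon signals, the mean over 40-bp bins of reads scaled by 1 factor per library, and 1 read in a bin was worth 0.340 to 0.476 signal. Of 8 hemocyte markers, 7 were detected (mean control signal of 1 or more), with summed levels of 57.9 and 70.2 in the controls, against 61.1 and 63.5 under knockdown. Only 4 of 18 neuron and glia markers, 3 of 19 muscle markers and 5 of 20 germline and ovary markers were detected, and nSyb, Syt1, Mhc, bam and Yp1 were at 0 in all 4 libraries. Control 1 was the least even library along genes: over 1231 genes of 3 or more exons and a mean signal of 5 or more, the median size of the log2 ratio between the first and last exon was 2.59 there against 1.85 to 2.00 in the other libraries.

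The edge of the rule was narrow for a few peaks. The dTet-alone peaks nearest to a yellow peak lay in nocte (91 bp away), Rbm13 (164 bp away) and Rbp2 (now eIF4H1, 195 bp away), all on X. The nearest yellow-alone peaks lay in the lncRNA CR45197 within sgg (204 bp away), in ctp (283 bp away) and in dTet itself (468 bp away). Among shared yellow peaks, the smallest overlaps with the dTet list were 126 of 378 bp in an intron of ct and 247 of 497 bp in CG42346. A further small overlap, 230 bp over snoRNA:Psi28S-2996, was the whole of a yellow peak of 230 bp. When 25% of a peak had to be shared, the yellow-alone count stayed at 136 and the dTet-alone count was 265. Peaks just apart from the other list were few. A peak of the other list lay within 500 bp of 5 yellow-alone peaks (3.68%) and of 6 dTet-alone peaks (2.32%), and within 10000 bp of 32 (23.5%) and 59 (22.8%). The median distance to the nearest peak of the other list was 32994 bp for yellow-alone and 49473 bp for dTet-alone peaks. The farthest yellow-alone peak lay in an intron of dpr2 on 2L (10947830 to 10948201), 538448 bp from any dTet peak. On 2R, a dTet-alone peak in jing and a pair in Ars2, which encodes a cap-binding complex partner, lay 861753 to 1120338 bp from any yellow peak.

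Yellow-alone peaks were short and dTet-alone peaks long. The median width was 410.5 bp for yellow-alone peaks (quartiles 368 and 532, range 230 to 1841 bp) and 900 bp for dTet-alone peaks (quartiles 728.5 and 1105, range 274 to 2725 bp). Both lists followed the same order within themselves, with shared peaks wider at medians of 616 bp in the yellow list and 1060.5 bp in the dTet list. The lists thus differed in width as wholes, shared peaks included. Only 4 of 136 yellow-alone peaks (2.94%) were 1000 bp or wider, against 91 of 259 dTet-alone peaks (35.1%). In sum the yellow-alone peaks covered 66.3 kb and the dTet-alone peaks 246.4 kb. Among peaks of 400 bp or wider in both lists, 72 yellow-alone and 285 dTet-alone peaks were counted. The 72 are the yellow-alone peaks of that width, and the dTet-alone number was higher because narrow yellow peaks no longer served as counterparts.

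**Figure D1:**
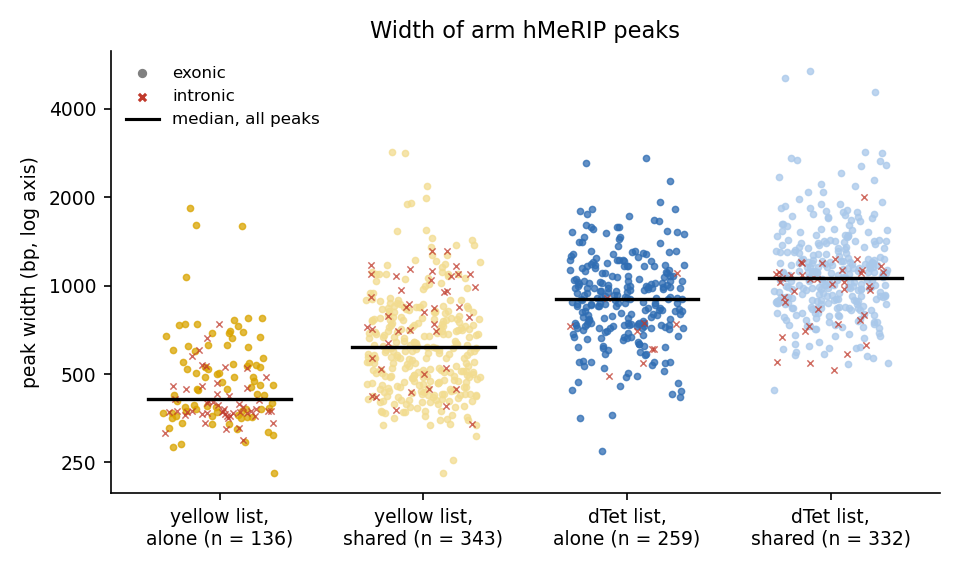
Width in bp (log axis) of every arm peak by class, with dots for exonic peaks, crosses for intronic peaks and a black line at the median of all peaks in the class. Yellow-alone peaks centre on 410.5 bp with many intronic crosses, and dTet-alone peaks centre on 900 bp with few.

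The share of peaks without a counterpart fell with width in each list. Of yellow peaks under 400 bp, 64 of 95 were alone (67.4%, 95% Wilson interval 57.4 to 76.0%, which here and below covers counting error only), and of those 1000 bp or wider 4 of 52 were (7.69%, 3.03 to 18.2%). Of dTet peaks of 400 to under 600 bp, 26 of 38 were alone (68.4%, 52.5 to 80.9%), and of those 1000 bp or wider 91 of 283 were (32.2%, 27.0 to 37.8%). At equal width the dTet list held the larger share of peaks alone. From 600 to under 1000 bp it was 52.1% (139 of 267) against 14.2% in the yellow list (22 of 155). Equal width was not an equal place within each list, since shared peaks had median widths of 616 bp (yellow) and 1060.5 bp (dTet). How the threshold and depth of the 2 samples differ is not given in the sources used here. The part of all these in the shares was not tested.

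**Figure D2:**
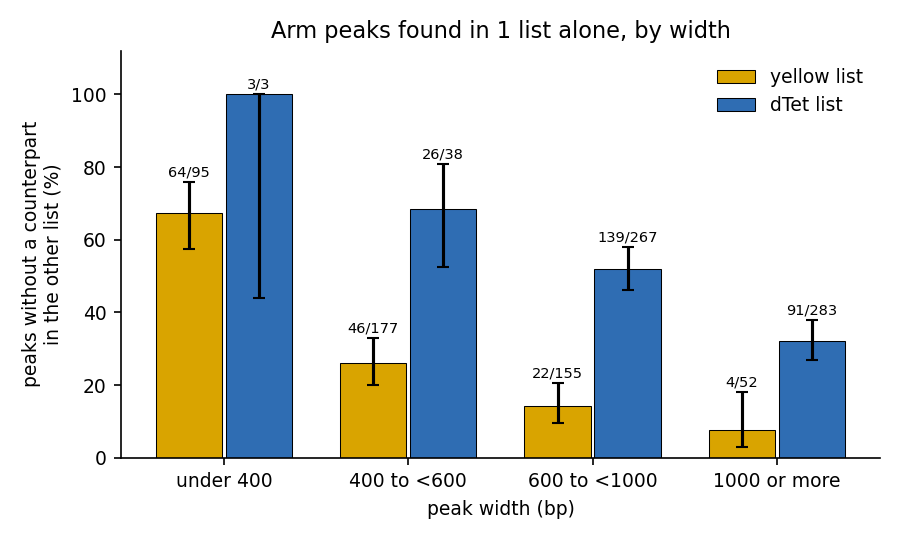
Percent of arm peaks in each width bin (bp) with no counterpart in the other list, by list, with counts above the bars and 95% Wilson intervals as error bars. The share falls from 67.4% to 7.69% in the yellow list and from 68.4% (400 to under 600 bp) to 32.2% in the dTet list, whose bin under 400 bp holds 3 peaks.

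The classes lay in different places of their genes. Peaks that touched an exon were counted as exonic, and those inside a gene that touched none as intronic. Of the yellow-alone peaks 84 were exonic (61.8%, 53.4 to 69.5%) and 52 intronic (38.2%, 30.5 to 46.6%). Of the dTet-alone peaks 249 were exonic (96.1%, 93.0 to 97.9%) and 10 intronic (3.86%, 2.11 to 6.96%). The shared peaks of both lists lay between these values, with 12.5% (43 of 343) and 11.7% (39 of 332) intronic. Narrower peaks were more often intronic among the yellow-alone peaks, at 32 of 64 under 400 bp and 3 of 22 from 600 to under 1000 bp. Among shared yellow peaks the intronic ones were wider, at medians of 811 bp against 598.5 bp for exonic ones. In the dTet list these medians were 715.5 and 906 bp (alone) and 1028 and 1071 bp (shared). The order of the classes held at like width. From 400 to under 600 bp, 17 of 46 yellow-alone peaks were intronic and 2 of 26 dTet-alone peaks. None of the 1070 arm peaks lay outside a gene, although gene spans cover 72.4% and exons 28.7% of the arms, so a filter on genes before deposit cannot be told apart from enrichment on transcripts.

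**Figure D3:**
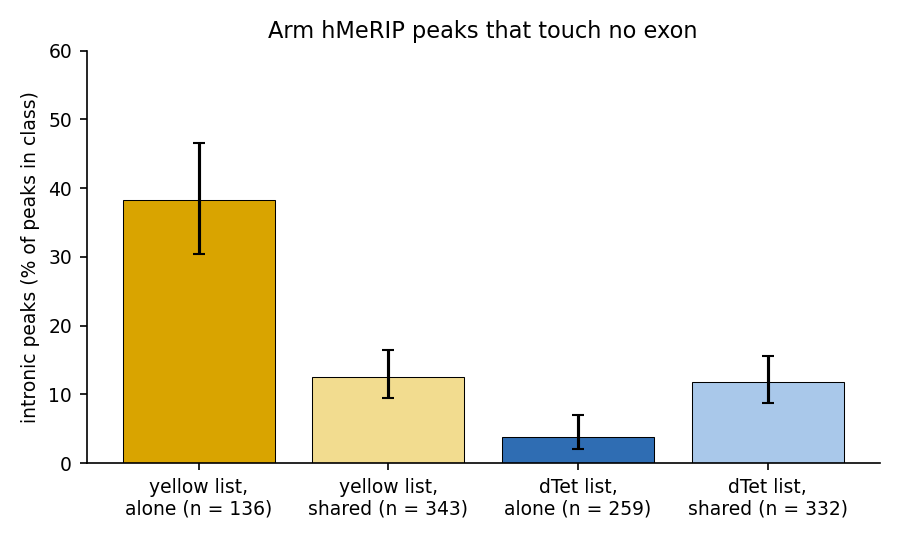
Percent of arm peaks that touch no exon, by class, with 95% Wilson intervals. Yellow-alone peaks stand at 38.2%, the shared classes at 12.5% and 11.7%, and dTet-alone peaks at 3.86%.

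How exonic peaks sat on exons differed between the lists as wholes, shared peaks included. Of the exonic yellow-alone peaks 54 of 84 lay wholly in exons (64.3%), against 83 of 249 dTet-alone peaks (33.3%), and of the shared peaks 53.7% in the yellow list and 31.4% in the dTet list did. In genes of 3 or more separate exons, 71 of 75 yellow-alone peaks touched a single exon (94.7%) and 135 of 213 dTet-alone peaks did (63.4%), against 77.6% and 56.3% of shared peaks. The longest exon of the gene was among those touched for 44 of 75 yellow-alone peaks (58.7%) and 104 of 213 dTet-alone peaks (48.8%). The intervals overlap (47.4 to 69.1% and 42.2 to 55.5%), and shared peaks stood at 55.2% and 61.2%. The first or last exon in genome order was among them for 42 (56.0%) and 93 (43.7%), and for 38.1% and 43.7% of shared peaks. dTet-alone peaks more often touched several exons, and the part of this in these shares was not tested. The exons under the peaks were slightly stronger in polyA RNA than their whole genes, by a median of 0.17 (yellow-alone) and 0.14 (dTet-alone) on the log2 scale in the controls. Shared peaks had the same trait, at 0.21 in the yellow list and 0.19 in the dTet list.

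Yellow-alone peaks were frequent on X. X held 61 of 136 (44.9%, 36.8 to 53.2%), against 92 of 343 shared yellow peaks (26.8%, 22.4 to 31.7%) and 67 of 259 dTet-alone peaks (25.9%, 20.9 to 31.5%). X carries 19.9% of the exonic length and 18.5% of the signal of detected genes. Exonic yellow-alone peaks were on X in 43 of 84 cases (51.2%, 40.7 to 61.6%) and intronic ones in 18 of 52 (34.6%, 23.2 to 48.2%). None of the 10 intronic dTet-alone peaks was on X. The median width of yellow-alone peaks was 458 bp on X and 390 bp on other arms, and 23 of the 61 on X were under 400 bp. The part of width in the share on X was not tested. dTet-alone peaks were most frequent on 3R, with 75 of 259 (29.0%), an arm with 23.3% of the exonic length of detected genes.

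**Figure D4:**
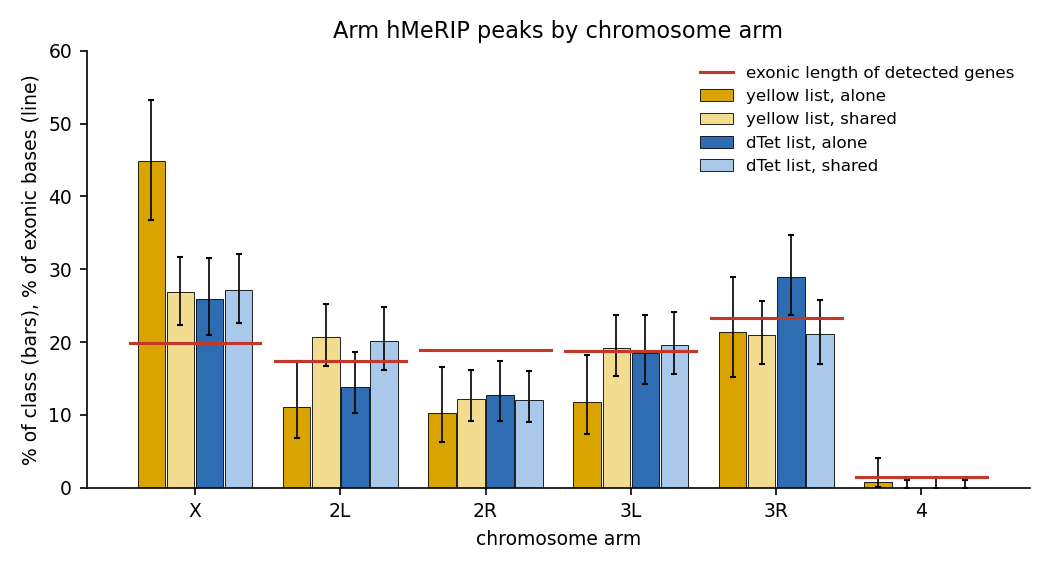
Percent of each class of arm peaks on each chromosome arm (bars, 95% Wilson intervals), with a red line at the percent of exonic bases of detected genes on that arm. The yellow-alone bar on X (44.9%) stands above the other classes (25.9 to 27.1%) and the line (19.9%).

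The gene signals were a measure that did not enter the peak calls. Exonic yellow-alone peaks touched 85 genes and exonic dTet-alone peaks 232. Of these 77 (90.6%) and 214 (92.2%) were detected, which is 1.27% and 3.52% of the 6086 detected genes. Over all 85 and 232 genes the median control signal was 4.74 (quartiles 2.28 and 10.5) and 5.69 (quartiles 2.99 and 11.9), near the 5.56 and 5.38 of genes under shared yellow and dTet peaks. Over the detected ones it was 5.45 and 6.32, against 2.99 for all detected genes and 5.90 and 5.70 for detected genes under shared peaks. Median exonic length was 5.31 kb and 4.20 kb, against 4.45 and 4.38 kb under shared peaks and 2 kb for all detected genes. In the knockdown libraries the medians were 4.49 and 4.38 for yellow-alone genes and 6.06 and 5.69 for dTet-alone genes. By current annotation 82 of 85 and 221 of 232 were protein-coding, with 1 miRNA and 1 lncRNA in the first class and 4 snoRNAs, 1 lncRNA and 1 other non-coding RNA in the second. The rest had no match.

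Most of these genes had peaks of 1 list only. No exonic dTet peak lay in 64 of the 85 yellow-alone genes, and no exonic yellow peak in 195 of the 232 dTet-alone genes. A peak of the other list lay somewhere in the span of the gene for 20 of 84 exonic yellow-alone peaks (23.8%, 15.97 to 33.9%) and 54 of 249 exonic dTet-alone peaks (21.7%, 17.0 to 27.2%). For intronic peaks this held for 19 of 52 and 6 of 10. Several peaks of its class lay in 2 yellow-alone genes and in 22 dTet-alone genes.

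dTet carried a peak of each class. Its yellow-alone peak, 1609 bp on 3L (2789761 to 2791369), lay 94.2% in exons, over the end of the exon from 2786206 to 2791276. A shared peak (2788425 to 2789523 in the yellow list) touched the same exon, just before it. A dTet-alone peak of 545 bp lay in an intron (2829626 to 2830170), 299 bp from a shared intronic peak. The signal of the exon under the yellow-alone peak was 13.5 and 16.03 in the controls, against 9.54 and 12.8 under knockdown. Each knockdown library was lower than each control, and the log2 change was -0.39, short of the threshold (limma, unadjusted p = 0.212, adjusted p = 0.9987). For the whole gene the signals were 6.93 and 8.01 against 4.88 and 6.60, again without overlap (log2 change -0.34 ± 0.21 SE, unadjusted p = 0.144, adjusted p = 0.9995). The yellow gene had no peak in either list.

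The widest yellow-alone peak was 1841 bp in CG2839 on 2L (626430 to 628270). CG2839 stood at 0 in all 4 RNA-seq libraries, so the peak lay on a gene without polyA signal here. CG32767 on X had a peak of 1598 bp (4975484 to 4977081) and another of 733 bp (4973882 to 4974614), with gene signals of 4.12 and 3.45 in the controls, against 3.22 and 2.72 under knockdown. Further wide peaks lay in l(1)G0289 (1066 bp), in Act5C, the main cytoplasmic actin gene (776 bp, X, 5797747 to 5798522), and in AP-1gamma, a subunit of the clathrin adaptor AP-1 (774 bp). CG42232 on 3R had a peak of 764 bp that lay 466104 bp from any dTet peak. Hex-A, a hexokinase gene on X, was the other gene with more than 1 peak (619 bp at 9479940 to 9480558 and 626 bp at 9482534 to 9483159). Both Hex-A peaks lay in the same exon, whose signal was 12.4 and 11.8 in the controls, against 13.1 and 11.2 under knockdown, with overlapping groups.

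The most abundant yellow-alone gene was pAbp, for the poly(A)-binding protein, with gene signals of 123 and 113 in the controls, against 116 and 125 under knockdown. Its peak of 689 bp lay wholly in an exon (2R, 14033334 to 14034022), and the groups overlapped. Act5C followed at 95.6 and 87.6 against 99.8 and 107, where the knockdown libraries were higher without overlap (log2 change 0.18 ± 0.15 SE, limma adjusted p = 0.9995). vsg, CG3800 (now CNBP, a zinc-knuckle nucleic acid-binding protein), chic (profilin) and CG9821 (now aqz) had mean control signals of 44.2 to 65.4. At the other end, CG2839 and CG6220 were at 0, HIP at 0.233 and CG12179 (now Alms1a) at 0.306. In all, 8 of the 85 genes were below detection.

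The sole yellow-alone peak on chromosome 4 lay in gw, whose protein GW182 acts in miRNA silencing (676958 to 677386, 429 bp, wholly in exons). The dTet list had no peak on 4. The gw signals were 3.57 and 4.81 in the controls, against 4.77 and 4.10 under knockdown, with overlapping groups.

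The widest dTet-alone peak was 2725 bp in CG7358 on X (18785048 to 18787772), now Flacc, a component of the m6A methyltransferase complex. The gene's signals were 2.93 and 4.52 in the controls, against 2.99 and 4.43 under knockdown. larp, a La-related mRNA-binding protein, had peaks of 2622 bp (3R, 24147966 to 24150587) and 1253 bp (24159289 to 24160541) and no yellow peak in its exons. Its signals were 18.2 and 13.1 against 18.6 and 14.3, and the groups overlapped for larp as for CG7358. Ect4 (now Sarm, an NAD-cleaving enzyme of axon degeneration) had a peak of 2264 bp and Xrp1, a stress-induced bZIP transcription factor, one of 1920 bp (3R, 14750706 to 14752625). Msr-110 (1820 bp), CG11138 (now Pits, 1818 bp), CG3847 (1798 bp) and kay, the fly Fos (1748 bp), completed the widest 8. Of these 8 genes, kay alone had an exonic yellow peak as well.

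msn, a Ste20 kinase that acts upstream of JNK, had the most dTet-alone peaks of any gene, 6, and no exonic yellow peak. They ran along 3L from 2557648 to 2567177, and the nearest yellow peak was 12510 bp from the first. The peaks were 437 to 1100 bp wide and lay 21.7 to 77.8% in exons, so each spanned exon and flanking intron. The longest exon under the last peak (2566433 to 2566932) had signals of 26.4 and 48.7 in the controls, against 55.9 and 53.9 under knockdown. Control 1 was the low library there, as it was in the exons under the first peak (11.3 and 16.3 against 18.9 and 24.6) and the second (21.5 and 34.7 against 37.4 and 45.7). None of the 6 exons passed the test (limma, adjusted p = 0.9987), and for the whole gene the signals were 14.4 and 20.3 against 20.4 and 19.4.

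Other genes with several dTet-alone peaks were of varied level. Syp, an mRNA-binding protein of the SYNCRIP family, had 3 peaks of 274 to 743 bp (3R, 16624015 to 16632006) and a control signal of 7.30 ± 1.53 (SD, n = 2). Pif1A had 3 peaks at a control signal of only 0.525 ± 0.045 (SD, n = 2). Socs36E, a suppressor of JAK/STAT signalling, had 2 (735 and 909 bp, 2L, 18140471 to 18142705). Its signals were 17.6 and 17.7 in the controls, against 20.4 and 21.9 under knockdown, higher without overlap (log2 change 0.25 ± 0.17 SE, limma adjusted p = 0.9995). Smr, a nuclear receptor corepressor, had 2 dTet-alone exonic peaks and also yellow-alone peaks.

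Among dTet-alone genes the highest control signals belonged to RpL22 (122.5) and sta (104), both for ribosomal proteins, and to a pair of snoRNAs under the sta peak, snoRNA:M (107) and snoRNA:Me28S-G980 (105). Those snoRNAs overlap each other between 2 exons of sta, so their reads cannot be told apart from one another or from unspliced sta RNA. The chaperone gene Hsc70-4 stood at 99.8 and Ef1gamma (now eEF1gamma, a translation elongation factor) at 95.8. RpL22 had 122 and 123 in the controls, against 124 and 139 under knockdown. At the low end, grh (an epithelial transcription factor) stood at 0.00842, futsch (a neuronal microtubule-associated protein) at 0.0483, and the inducible heat-shock genes Hsp70Aa and Hsp70Ab at 0.0212 each. The Hsp70 copies are near-identical, share the peak at 3R 7784227 to 7785443, and their values are uncertain for that reason. In all, 18 of the 232 genes were below detection.

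Exonic peaks of both classes occurred in 10 genes, which are 11.8% of the yellow-alone genes and 4.31% of the dTet-alone genes, and 6 of the 10 lay on X. By control signal they were ena (29.5), an actin polymerase; Smr (18.1); fs(1)h (14.1), a BET bromodomain protein; sgg (6.49), the fly GSK3 kinase; CG11505 (now Larp4B, 6.14); tlk (5.59), the Tousled-like kinase; upSET (5.47), a SET-domain protein; nej (5.45), the CBP acetyltransferase; ctrip (4.74); and Rbcn-3B (3.44). In several of them the peaks of the 2 lists lay close together. In Rbcn-3B a dTet-alone peak (X, 1807698 to 1808604) and a yellow-alone peak (1809246 to 1809604) were 641 bp apart. In upSET the gap was 757 bp (dTet-alone 3L 14007744 to 14008732, yellow-alone 14009490 to 14009930), and in ena 1108 bp. In fs(1)h, nej, tlk and ctrip shared peaks lay in the same gene. In nej the yellow-alone peak of 318 bp (X, 9575926 to 9576243) ended 633 bp before a shared peak, and a pair of dTet-alone peaks lay at 9563937 to 9566183.

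The 52 intronic yellow-alone peaks lay in 44 host genes, of which 34 (77.3%) were detected, at a median control signal of 3.69. Their median distance to the nearest exon was 2740.5 bp, and 6 of the 52 lay within 500 bp of one. The widest were in Gug, a corepressor of the atrophin family (742 bp, 3L, 8449084 to 8449825), in osa, a subunit of the Brahma chromatin remodeler (661 bp), in CG32676 (606 bp) and in pigs (577 bp). Gug had signals of 3.12 and 2.44 in the controls, against 2.50 and 2.24 under knockdown, and the groups overlapped. Hosts with more than 1 such peak are named here after their values were seen. gpp, the Dot1 methyltransferase of histone H3, held 3 within 3R 2236484 to 2242696, at a signal of 2.54 and 2.73 in the controls, against 2.50 and 2.63 under knockdown. chinmo, sbb, bru-3, tara, pigs and CHES-1-like held 2 each, at control signals from 0.00753 (bru-3, which encodes an RNA-binding protein of the Bruno family) to 15.5 (pigs). Signalling genes among the hosts were pnt (16.4), an ETS factor, InR (6.79), the insulin receptor, and wts (4.73), the Hippo pathway kinase. Of the hosts 3 were at 0 in both controls.

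The 10 intronic dTet-alone peaks were each in another gene. The widest lay in ens (1105 bp, 3L, 4128202 to 4129306), which encodes the microtubule-associated ensconsin, cic (910 bp), a transcriptional repressor, CG5953 (744 bp) and puc, the phosphatase that restrains JNK (739 bp). puc also carried an exonic dTet-alone peak (3R, 3946419 to 3946952). Their median distance to the nearest exon was 1552.5 bp, and 4 of the 10 lay within 500 bp of one. pnt had intronic peaks of both classes.

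Genes were also counted by function, beside the 3.52% of all detected genes with a dTet-alone peak and the 1.27% with a yellow-alone peak, as a description without a test. Over all measured members the median control signal was 7.01 for mRNA-binding regulators, 3.34 for chromatin genes, 5.47 for stress factors and 2.11 for RNA modification genes. It was 2.99 for all detected genes, an unlike set, since the lists also hold undetected members (2, 1, 3 and 4, in that order). The shares were not matched for level or exonic length, and the part of these was not tested. Exonic shared peaks (of either list) were found in the same gene lists, counted here over all measured members, detected or not. They lay in 10 of 39 mRNA-binding regulators, 9 of 42 chromatin genes, 2 of 20 stress factors and 1 of 18 RNA modification genes. They also lay in 5 of 43 cytoskeletal genes, 4 of 61 signalling genes and 4 of 39 translation factors. Of 93 ribosomal protein genes 1 had one, and of 25 matrix and hemocyte genes 6. Among all 6086 detected genes, 278 had an exonic shared peak of the yellow list and 286 one of the dTet list. These counts are per list and over detected genes, so they are not a like base for the counts by gene list. Of 37 detected mRNA-binding regulators, 9 carried an exonic dTet-alone peak (24.3%), among them Rbp2, the hnRNP gene sqd, larp and the translational repressor pum, and 1 (pAbp) a yellow-alone peak. Of 41 chromatin coactivators and remodelers, 7 had a dTet-alone peak (17.1%), among them fs(1)h, kis, osa and nej, and 2 (fs(1)h and nej) a yellow-alone peak. Of 17 stress and growth transcription factors, Xrp1, kay and puc had a dTet-alone peak (17.6%) and none a yellow-alone peak. Of 14 RNA modification genes, CG7358 and YT521-B (now Ythdc1, the nuclear m6A reader) had a dTet-alone peak. The YT521-B peak of 1221 bp lay wholly in an exon (3L, 3371249 to 3372469), whose signals were 20.5 and 18.5 in the controls, against 20.8 and 20.7 under knockdown.

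Of 39 detected cytoskeletal genes, 5 had a yellow-alone peak (12.8%): Act5C, chic, the GTPase gene Rho1, ena and the actin-bundling Fim. dTet-alone peaks lay in 4 of the 39 (10.3%), alphaTub84B, ena, capt and Rok. Of 49 signalling genes, Socs36E, msn, sgg and the cytokine receptor dome had a dTet-alone peak (8.16%), and sgg a yellow-alone peak. Of the 85 detected genes for the abundant ribosomal proteins, 4 had a dTet-alone peak (RpL22, sta, RpS3 and RpS14b). That is 4.71%, near the 3.52% of all detected genes. None had a yellow-alone peak, against 1.27% of all detected genes. A dTet-alone peak also lay in 2 of 33 translation factors (6.06%, Ef1gamma and eIF6). It lay in 1 of the 20 extracellular matrix and hemocyte genes (5%), LanB1. Among the detected markers of other cell types, Syx1A and moody (neuron and glia, 2 of 4) and Tm1 (muscle, 1 of 3) had a dTet-alone peak, and tud (germline, 1 of 5) a yellow-alone peak.

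dTet knockdown changed none of the genes under single-list peaks past the threshold. Of the 6050 genes tested (mean signal at least 1), 0 were called at an adjusted p under 0.05 (0%; limma, Benjamini-Hochberg over all genes tested), and 245 (4.05%) had an unadjusted p under 0.05. Of 77 yellow-alone genes tested, 0 were called and 1 (1.30%, mir-2493, described below) had an unadjusted p under 0.05. Of 215 dTet-alone genes, 0 were called and 2 (0.930%) were under it. Higher and lower values were near balance, at 39 and 38 of the yellow-alone genes (median log2 change 0.00) and 119 and 96 of the dTet-alone genes (median 0.03), against a median of -0.03 over all genes. Control and knockdown values did not overlap in 19 of 77 (24.7%) and 58 of 215 (27.0%), against 30.6% of all genes tested. These counts do not show that the genes were unaffected.

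The yellow-alone gene of smallest p was mir-2493, higher with a log2 change of 1.39 ± 0.57 SE (unadjusted p = 0.0373, adjusted p = 0.9995). Its signals were 0.680 and 0.260 in the controls, against 0.868 and 6.83 under knockdown, with knockdown 2 alone high, over 105 bp of exon. It entered the set tested only through knockdown 2, since its other 3 values are under the mean signal of 1. With knockdown 1 left out it passed the threshold (limma adjusted p = 0.0263), but that fit sets the lone high library against 2 controls, whose spread has to stand for both groups, so the call carries no weight. Fim was at 6.76 and 9.34 against 9.91 and 11.7 (log2 change 0.40), and Rbcn-3B and IntS6, an Integrator subunit, stood at log2 changes of 0.26 and 0.27. On the lower side were dTet itself, glo, a translational repressor (-0.28), CR45197 (-0.32) and Tequila (-0.39), none past the test. In IntS6 the exon under the peak (X, 5638388 to 5638731) had 5.02 and 5.25 in the controls, against 9.26 and 10.9 under knockdown (log2 change 0.85, unadjusted p = 0.0228, adjusted p = 0.9987).

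The dTet-alone gene of smallest p was CG1648 on 2R, with a peak of 734 bp (5698892 to 5699625). Its signals were 4.44 and 3.94 in the controls, against 8.39 and 9.44 under knockdown, higher without overlap (log2 change 0.93 ± 0.19 SE, unadjusted p = 0.00108, adjusted p = 0.708). The exon under its peak (5698478 to 5699472) stood at 6.05 and 5.04 against 10.9 and 13.5 (adjusted p = 0.9987). slik, a Ste20-like kinase that acts on Moesin, had the lowest p in the other direction. Its signals were 9.08 and 9.93 against 6.73 and 6.90, lower without overlap (log2 change -0.43 ± 0.18 SE, unadjusted p = 0.0472, adjusted p = 0.9995). Among the others of smallest p were cnn, a centrosome protein (0.43), and Elf (0.41) on the higher side. tna (-0.42), vig2 (-0.40) and CG2469, now the Paf1 complex gene Ctr9 (-0.37), were on the lower side.

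**Figure D5:**
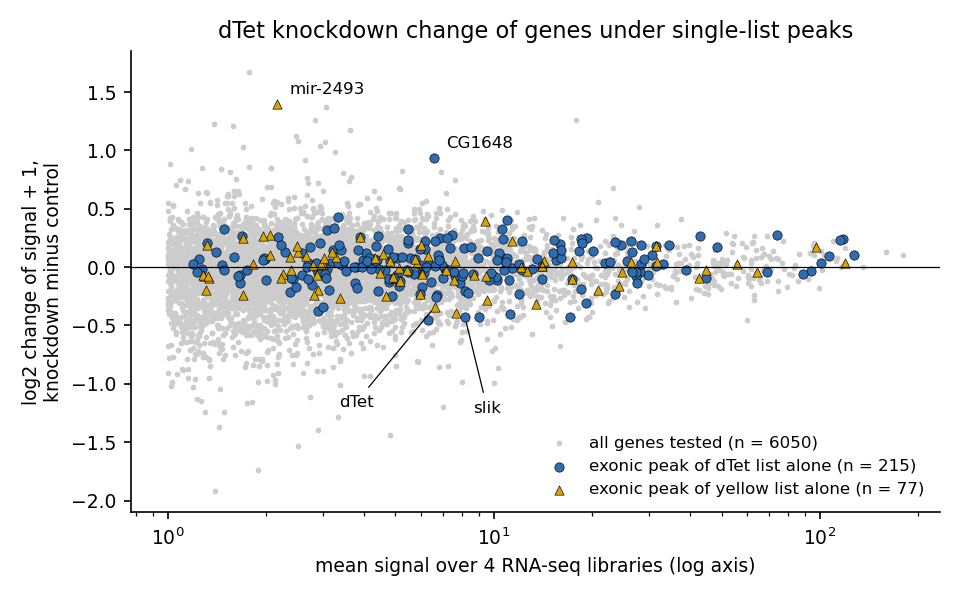
Log2 change of signal + 1 (knockdown minus control) against mean signal over 4 RNA-seq libraries (log axis) for all 6050 genes tested (grey), yellow-alone genes (triangles, n = 77) and dTet-alone genes (circles, n = 215). No gene passed the adjusted threshold, and mir-2493 (1.39) and CG1648 (0.93) lie farthest above the line among the single-list genes. mir-2493 passed the signal filter only through knockdown 2, the library in which it is high.

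Exons directly under the peaks gave the same counts of calls as whole genes. Of 132 exons tested under yellow-alone peaks 0 were called, and 1 (0.758%) had an unadjusted p under 0.05. Of 467 under dTet-alone peaks 0 were called and 15 (3.21%) were under it, against 0% and 3.86% of the 27881 exons tested. The median log2 change was -0.02 under yellow-alone and 0.11 under dTet-alone peaks, against 0.02 over all exons, 0.05 under shared yellow peaks and 0.04 under shared dTet peaks. Values were higher in 291 of 467 exons under dTet-alone peaks, in 293 of 508 and 355 of 630 under shared yellow and dTet peaks, and in 14376 of 27881 exons overall. Every listed exon was tested, overlapping ones included, so these exons are not independent and 1 stretch of a gene can count more than once. Without control 1, the least even library, the dTet-alone median was 0.04, and without control 2 it was 0.16. The part of evenness in this shift was not tested.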

How the data were processed

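Per the submitters' processing notes, the authors aligned reads with BWA to dm3 and called peaks with MACS 1.4. The threshold, the use of input and the annotation are not given in the sources used here. The deposited peak lists hold positions only. The deposited RNA-seq signal per exon is, from the values, a mean of reads over 40-bp bins times 1 factor per library: with a tolerance of 0.05 read, 97.7 to 100.0% of exon values checked gave whole reads. Relative depth was 1.40 and 1.22 (controls) and 1.28 and 1 (knockdown). Absolute depth is unknown. Of 11 samples 6 were used, grouped by label. No label calls the replicates separate cultures, so the p-values cover only the spread between these libraries, which may be technical.

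The rule and lists were chosen with earlier results of these data known. Peaks were intersected at 1 shared bp. Exons come from the deposited control table, may be off by 1 bp and carry no strand, so reads of antisense partners cannot be told apart. For gene values the longest exon stood for each group of overlapping exons, weighted by bins. The exon fits kept every listed exon, overlapping ones included. Over 50% of exonic length was shared with another gene in 5 yellow-alone and 6 dTet-alone genes. Knockdown was tested with limma 3.58.1 in R 4.3.3 (lmFit, eBayes with trend, two-sided) on log2(signal + 1), over genes whose mean signal was at least 1, which understates changes of low genes. The fit was tested on simulated data. Of 16509 symbols, 12228 were current in RefSeq and 4031 synonyms (names only), and 6 of 307 member genes had no match.

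Named genes are, per class, the 8 widest peaks, the 6 genes of highest and 4 of lowest signal, genes with several peaks or both classes, the 4 smallest p in each direction, up to 4 members per list, the 3 nearest and farthest peaks and the 4 widest intronic peaks. The peaks' sequences are not analysed here. Same-numbered libraries did not deviate together (r = 0.01 over 6050 genes), so no block was used. Alternatives changed overlap, minimum width, exon share, pseudocount, filter, trend, scaling, gene model and libraries.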

Additional observations from a re-analysis of the deposited data

How the results depend on the processing

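Numbers of peaks depended most on width: with peaks of 400 bp or wider in both lists, yellow-alone peaks fell in number to 72, and 72.2% of them were exonic (an alternative chosen after seeing the data). With 50% or more of a peak required in exons, 92.3% of dTet-alone peaks were exonic. When the other list's peak had to touch an exon, 16.1% of exonic dTet-alone peaks had one in their gene. The median control signal of yellow-alone genes was 4.47 to 4.81 with 1 control library left out and 4.48 when peaks within 500 bp counted as shared. For dTet-alone genes it was 5.70 to 5.72 and 5.60. The count of yellow-alone genes called in the knockdown was 0 to 1 with 1 library left out, and the 1 was mir-2493 without knockdown 1, a test of 1 knockdown library against 2 controls, with the lone library assumed to vary like the controls, on a gene that passed the signal filter only through that library. With the replicate block, which the numbers do not justify here, 0 genes and 0 exons of either class were called. Scaling libraries to the same upper quartile moved the median log2 change to 0.03 (yellow-alone genes) and 0.05 (dTet-alone genes), and over all alternatives these medians ran from -0.01 to 0.03 and from 0.02 to 0.05. The medians of exons ran from -0.02 to -0.01 and from 0.04 to 0.16, where the lowest was without control 1. The share on X stayed between 44.3 and 52.8% for yellow-alone and between 24.9 and 26.9% for dTet-alone peaks under alternatives chosen after seeing the data. Numbers, shares, widths, gene levels and counts of calls moved in the 10 cases above and kept their values, within 1.5 times for counts or within their spread, in 52 others. With 1 hMeRIP sample per line and no peak heights, how far depth and the caller's threshold set the single-list peaks cannot be told apart from genotype.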
